A study of Mus musculus with 8 samples.

Results

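The data describe which TRAV segment was joined to which TRAJ segment, and how long the resulting CDR3 was, in the T cell receptor alpha chains of mouse CD8 T cells. In each of 4 T cell receptor libraries the productive TRA contig with most UMIs (unique molecular identifiers, 1 per captured RNA molecule) was taken for every cell barcode, together with its TRB chain. Cells with the same TRB chain and the same TRA segments and CDR3 nucleotides formed 1 clone, and each clone was counted once per library. This gave 11091 clones, from 15896 productive TRA contigs, with 2414 of the 3827 pairs that 89 TRAV and 43 TRAJ segments could form.

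The study sorted CD8+ T cells from spleens and livers of mice with an Eomes gain of function in T cells (EomesTG, homozygous EomesTg/Tg) and of wild-type mice (WT), both on a C57BL/6 background. Cells of 3 mice were pooled per genotype before sorting, so each of the 4 combinations of genotype and organ is 1 library without replicates, and the spleen and liver libraries of a genotype come from the same mice. Ages and the promoter of the transgene are not given in the sources used here. Every interval below is an exact 95% interval that covers counting error of clones, cells or UMIs only, not differences between mice, and no p-values are given. The clones numbered 4100 in EomesTG spleen and 3935 in WT spleen, and 1028 in EomesTG liver and 2028 in WT liver.

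The Tra locus rearranges in steps. The earliest joins use TRAV segments near the TRAJ cluster and TRAJ segments at its 5′ end, and each further join on the same chromosome deletes what lies between and moves outward, to a more distant TRAV and a more 3′ TRAJ. The Trd segments lie between TRAV and TRAJ and are lost with the first TRAV to TRAJ join. The join is trimmed, and terminal deoxynucleotidyl transferase (Dntt) adds bases encoded by neither segment. A few pairs define innate-like lineages: TRAV11 with TRAJ18 in invariant natural killer T cells and TRAV1 with TRAJ33 in mucosal-associated invariant T cells.

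The junctions below are CDR3 nucleotides of the largest clones and of TRA chains that recurred with the most different TRB chains. These show the most expanded and the most often repeated joins. The line of TRAV1 with TRAJ33 is printed as an invariant pair. They run 5′ to 3′ as deposited; bases in capitals match neither the germline TRAV end nor the germline TRAJ start, and lower case marks germline bases. All come from the Tra locus on chromosome 14.
EomesTG liver, 492 cells, TRAV14D-1 TRAJ23: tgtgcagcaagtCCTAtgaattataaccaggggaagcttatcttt
EomesTG liver, 448 cells, TRAV19 TRAJ58: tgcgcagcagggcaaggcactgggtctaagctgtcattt
EomesTG liver, 233 cells, TRAV13-1 TRAJ31: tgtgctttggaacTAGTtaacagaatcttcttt
WT liver, 117 cells, TRAV10 TRAJ56: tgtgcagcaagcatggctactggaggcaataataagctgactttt
18 TRB chains, TRAV14D-2 TRAJ22: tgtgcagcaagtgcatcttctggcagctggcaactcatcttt
11 TRB chains, TRAV14N-3 TRAJ22: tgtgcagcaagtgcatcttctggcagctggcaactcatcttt
15 TRB chains, TRAV11 TRAJ18: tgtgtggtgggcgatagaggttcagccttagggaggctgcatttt
13 TRB chains, TRAV11 TRAJ18: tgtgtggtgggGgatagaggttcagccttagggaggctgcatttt
5 TRB chains, TRAV1 TRAJ33: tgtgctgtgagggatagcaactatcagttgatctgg

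The 492-cell clone carried 4 bases of neither segment, and the 448-cell clone carried none. The TRAV14D-2 and TRAV14N-3 junctions with TRAJ22 are the same sequence under different names of near-identical TRAV copies, which read assembly may not tell apart; 77 of the 89 TRAV segments have such named copies. TRAV14D-2 lies in the distal and TRAV14N-3 in the central part of the TRAV row, so a swap of copies changes the position values on which the pairing results rest. In the printed lines that give TRB chains, 0 or 1 base was of neither segment. Among recurrent chains not printed, TRAV9D-3 with TRAJ26 (10 TRB chains) held 3 such bases. Junctions of TRAV12D-3 with TRAJ23 (7 and 6 TRB chains) held 3 and 4. TRAV3D-3 with TRAJ22 (9 TRB chains), TRAV9D-3 with TRAJ33 (8) and TRAV12-2 with TRAJ34 (6) held 0.

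Library checks touched the pairing as follows. Eomes, the transcription factor encoded by the transgene, had 134 CPM (UMI counts scaled to a common library total) in EomesTG spleen against 86.8 in WT spleen, and 182 in EomesTG liver against 82.8 in WT liver. Cd8a and Cd8b1 were between 500 and 1270 CPM in every library and Cd4, which marks the other main lineage, was at most 0.307. Tcrg-C2, a constant segment of the gamma chain, had 90.9 CPM in EomesTG liver and 15.9 in WT liver, and the hepatocyte gene Alb 7.12 and 94.6. The part of such cells in the liver results was not tested. TRA contigs held a median of 5 UMIs in EomesTG liver and 4 in each other library; 141 barcodes occurred in more than 1 library, and 0 of them had the same TRA chain there.

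The segments were numbered by their place on chromosome 14 (plus strand, build mm10, GENCODE M21 annotation). TRAV order 1 is the segment nearest to the TRAJ cluster, TRAV21-DV12, and order 89 is the farthest, TRAV1. TRAJ order 1 is the 5′-most segment, TRAJ58, and order 43 is TRAJ2. Each row was also cut into 3 zones of nearly equal segment number: proximal TRAV (chr14:53491115-53876752), central TRAV (chr14:52972448-53488567) and distal TRAV (chr14:52427928-52957400), and 5′ TRAJ (chr14:54157280-54180024), central TRAJ (chr14:54180574-54197307) and 3′ TRAJ (chr14:54198790-54217901).

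Pairing was nested along the locus in all 4 libraries: clones with a distant TRAV tended to use a 3′ TRAJ. The Spearman correlation of TRAV order with TRAJ order over clones was 0.404 in EomesTG spleen (n = 4100) and 0.468 in WT spleen (n = 3935), and 0.405 in EomesTG liver (n = 1028) and 0.502 in WT liver (n = 2028). Clones of a library share its mice, its depth and the same segments, so these are descriptions. Relative to the product of segment zone shares, proximal TRAV with 3′ TRAJ held 0.556 of the expected clones in EomesTG spleen and 0.388 in WT spleen, and 0.514 in EomesTG liver and 0.365 in WT liver. Distal TRAV with 3′ TRAJ held 1.82 times the expected number in EomesTG spleen and 1.51 times in WT spleen, and 2.17 times in EomesTG liver and 1.59 times in WT liver. The distal and 3′ corner was thus above the product of its margins in every library, although EomesTG libraries held few such clones.

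EomesTG clones were shifted toward the inner, 5′ end of this order. The mean TRAV order was 31.0 in EomesTG spleen and 40.3 in WT spleen, and 29.1 in EomesTG liver and 39.6 in WT liver. The mean TRAJ order was 17.4 in EomesTG spleen and 22.5 in WT spleen, and 16.3 in EomesTG liver and 21.8 in WT liver. Both organs showed the same direction on both axes.

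**Figure D1:**
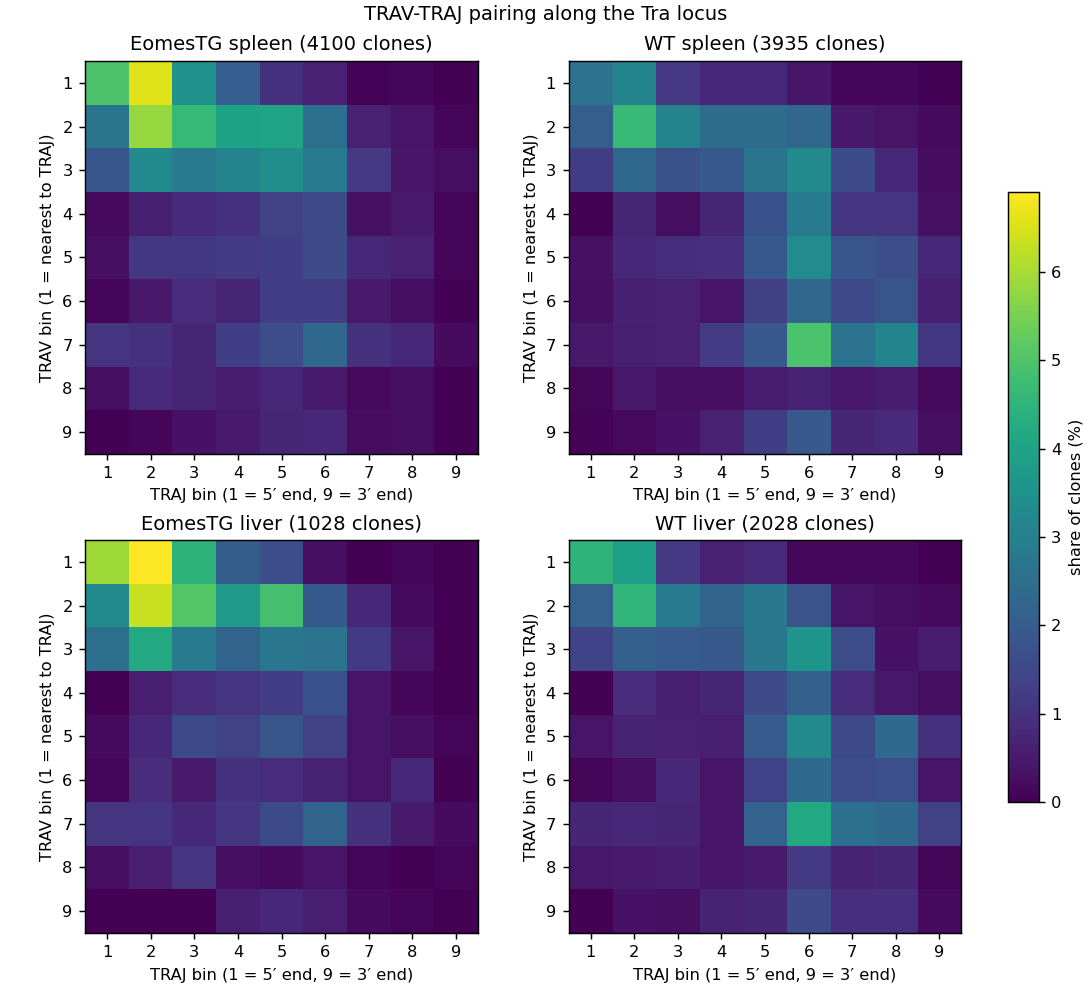
Share of clones (colour, %) by TRAV bin (rows, 1 nearest to TRAJ) and TRAJ bin (columns, 1 at the 5′ end), with 9 bins of nearly equal segment number on each axis, in each of the 4 libraries. EomesTG libraries are brightest in the upper left corner, of proximal TRAV with 5′ TRAJ, and WT libraries also fill the block of central and distal TRAV with TRAJ bins 5 to 8.

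Of clones in EomesTG spleen, 36.2% joined a proximal TRAV to a 5′ TRAJ, against 22.0% in WT spleen, a ratio of 1.65 (1.51 to 1.79). In liver the shares were 41.5% in EomesTG and 24.6% in WT, a ratio of 1.69 (1.48 to 1.93). The opposite corner, distal TRAV with 3′ TRAJ, held 3.56% of EomesTG spleen clones and 11.0% of WT spleen clones, a ratio of 0.324 (0.267 to 0.392). In liver it held 2.82% of EomesTG clones and 11.0% of WT clones, a ratio of 0.257 (0.168 to 0.379). Central TRAV with 3′ TRAJ moved likewise, with ratios of 0.327 (0.272 to 0.393) in spleen and 0.269 (0.179 to 0.393) in liver. As context, the whole 3′ TRAJ zone held 11.5% of clones in EomesTG spleen and 27.5% in WT spleen, and 8.85% in EomesTG liver and 26.5% in WT liver, while proximal TRAV held 63.0% and 42.9% in EomesTG and WT spleen and 66.2% and 44.9% in EomesTG and WT liver.

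The shift in TRAJ was also present among clones with a TRAV of the same zone. Among distal TRAV clones, 29.6% used a 5′ TRAJ in EomesTG spleen and 12.03% in WT spleen, a ratio of 2.46 (1.96 to 3.09). In liver the shares were 33.1% in EomesTG and 16.9% in WT, a ratio of 1.96 (1.36 to 2.81). Among proximal TRAV clones the difference in 5′ TRAJ use was small, with 57.5% in EomesTG spleen and 51.3% in WT spleen, a ratio of 1.12 (1.03 to 1.22).

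**Figure D2:**
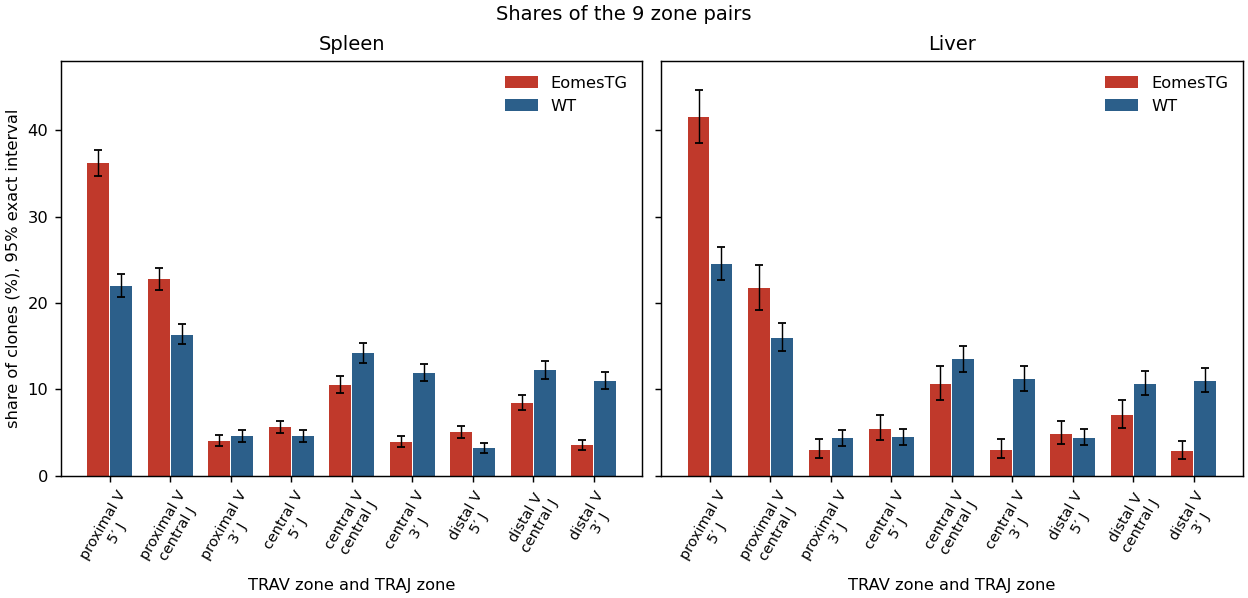
Share of clones (%, bars from 0, with exact 95% intervals for counting error) in the 9 combinations of TRAV and TRAJ zone, for EomesTG and WT in spleen (left) and liver (right). EomesTG bars are higher for proximal TRAV with 5′ or central TRAJ, and WT bars are higher for central and distal TRAV with 3′ TRAJ.

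Segment by segment the same direction held for most segments. With at least 10 clones in both spleen libraries, 56 of 66 TRAV segments were joined on average to a more 5′ TRAJ in EomesTG than in WT, with a median difference of -3.57 places. In liver this was so for 27 of 37 TRAV segments, with a median difference of -2.04 places. Seen from the other side, 38 of 41 TRAJ segments in spleen and 28 of 32 in liver were joined to a more proximal TRAV in EomesTG than in WT, with median differences of -4.18 and -4.58 places. With the TRAV shares set equal, the mean TRAJ order was 18.3 in EomesTG spleen and 21.1 in WT spleen, and 17.5 in EomesTG liver and 20.7 in WT liver, so part of the whole difference remained.

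The size of the difference depended on where the TRAV segment lies. In the 2 bins of TRAV segments nearest to TRAJ the mean TRAJ orders were close, at 10.4 in EomesTG spleen and 11.0 in WT spleen for bin 1, and 15.8 and 15.9 for bin 2. In liver they were 10.2 in EomesTG and 9.06 in WT for bin 1, the opposite direction, and 15.1 and 15.4 for bin 2. In bins 4 to 7 they lay apart: in bin 7 the mean TRAJ order was 21.7 in EomesTG spleen and 28.3 in WT spleen, and 21.1 in EomesTG liver and 27.7 in WT liver. From bin 4 outward the EomesTG means stayed within 15.8 to 24.5, whereas WT means lay between 23.4 and 28.3. Bin 8 was lower than its neighbours in all 4 libraries.

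**Figure D3:**
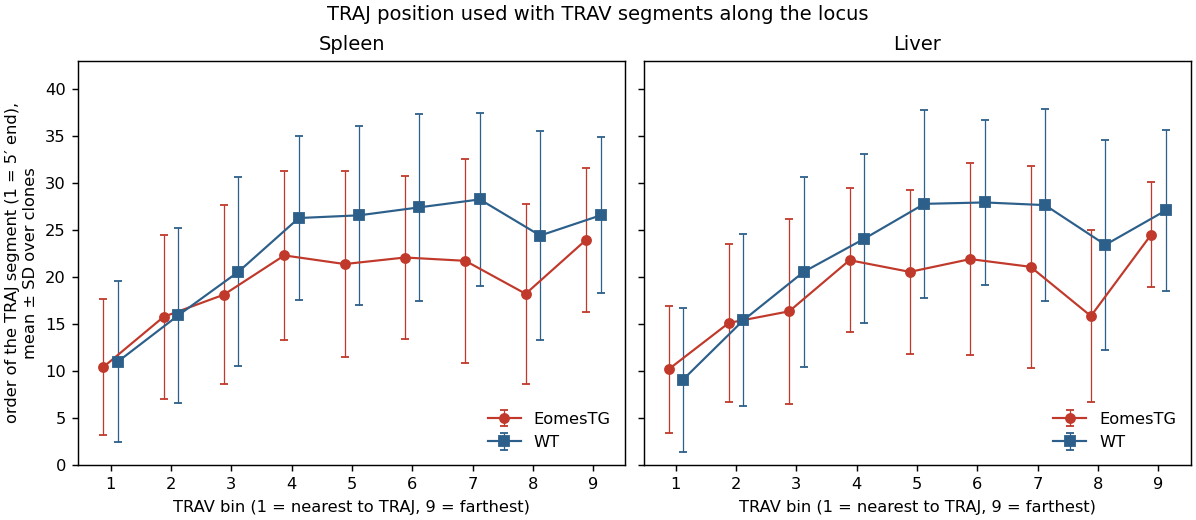
Mean order of the TRAJ segment (1 at the 5′ end; error bars, SD over clones) for clones in 9 bins of TRAV segments ordered from the TRAJ cluster outward, in spleen (left) and liver (right). EomesTG and WT are close in bins 1 and 2 and EomesTG is lower in bins 3 to 9 in both organs; the bars show how widely single clones vary, not the error of the means.

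Single TRAV segments show the range. TRAV21-DV12, the segment nearest to TRAJ, had a mean TRAJ order of 7.10 over 71 clones in EomesTG spleen and 8.76 over 21 clones in WT spleen, and 10.4 over 18 clones in EomesTG liver and 8.23 over 22 clones in WT liver. Its direction differed between the organs. TRAV12-2, also proximal, had means of 17.4 in EomesTG spleen and 17.1 in WT spleen, and 16.6 in EomesTG liver and 17.5 in WT liver. The central segment TRAV16N had means of 20.9 over 95 clones in EomesTG spleen and 25.1 over 146 in WT spleen, and 17.3 over 23 in EomesTG liver and 27.2 over 81 in WT liver. The distal segment TRAV9D-3 had means of 19.7 over 76 clones in EomesTG spleen and 28.3 over 143 in WT spleen, and 23.0 over 17 in EomesTG liver and 26.2 over 83 in WT liver. TRAV16N and TRAV9D-3 both paired with more 5′ TRAJ segments in EomesTG in each organ.

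At the ends of the locus the shares of clones, as context, moved the same way. The 5′-most TRAJ58 was used by 87 of 4100 clones in EomesTG spleen and 35 of 3935 in WT spleen. In liver it was used by 20 of 1028 clones in EomesTG and 30 of 2028 in WT, a small difference in share on few clones. The 3′-most TRAJ2 was used by 8 clones in EomesTG spleen and 17 in WT spleen, and by 0 in EomesTG liver and 19 in WT liver. TRAJ5, at order 41, was used by 4 clones in EomesTG spleen and 30 in WT spleen, and by 0 in EomesTG liver and 14 in WT liver. The farthest TRAV1 was used by 1 clone in EomesTG spleen and 18 in WT spleen, and by 0 in EomesTG liver and 17 in WT liver.

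Individual pairs were thinly filled, and 741 of the 2414 pairs were seen in 1 clone and 2125 in fewer than 10 clones. In spleen, 172 pairs had at least 10 clones over both genotypes; 12 of them (6.98%) were higher in EomesTG and 14 (8.14%) lower, by at least 1.5-fold with the interval on that side of 1. Of the 12 higher pairs, 6 joined a proximal TRAV to a 5′ TRAJ, 5 a proximal TRAV to a central TRAJ, and 1 a central TRAV to a central TRAJ. The tested pairs held 75, 41 and 21 of these kinds, so the higher calls by themselves single out no zone. Of the 14 lower pairs, 5 were central with central, 4 distal with central, 2 distal with 3′ and 1 each central with 3′, proximal with 3′ and proximal with 5′. Among all tested pairs of proximal TRAV with 5′ TRAJ in spleen, 57 had a ratio above 1 and 18 below, whereas 0 of the 7 pairs of central TRAV with 3′ TRAJ and 0 of the 6 pairs of distal TRAV with 3′ TRAJ had a ratio above 1. A pair could reach 10 clones through the genotype with more clones in its zone. Distal TRAV with 3′ TRAJ, for one, held 146 clones in EomesTG spleen and 432 in WT spleen. These directions thus follow in part from the filter and are no separate support for the zone shares.

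The 5 higher pairs whose bound lay farthest from 1 all used proximal TRAV segments. TRAV16 with TRAJ37 had 11 clones in EomesTG spleen and 1 in WT spleen, a ratio of 10.6 (1.53 to 454). TRAV14-3 with TRAJ45, TRAV21-DV12 with TRAJ56, TRAV5-4 with TRAJ50 and TRAV6-7-DV9 with TRAJ47 had 10 clones each in EomesTG spleen and 1 each in WT spleen, a ratio of 9.598 (1.37 to 417). In liver these 5 pairs had 0 to 2 clones in EomesTG and 0 to 5 in WT, too few to compare. The wide intervals follow from the single WT clone in each pair.

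Among the lower pairs, TRAV9D-3 with TRAJ9 had 1 clone in EomesTG spleen and 15 in WT spleen, a ratio of 0.0640 (0.00152 to 0.416). TRAV3-1 with TRAJ22 had 0 clones in EomesTG spleen and 10 in WT spleen, a ratio of 0 with an upper bound of 0.428. Set against a floor of 3 clones, this is 3.47-fold lower. TRAV16N with TRAJ26 had 1 clone in EomesTG spleen and 12 in WT spleen, and TRAV7D-2 with TRAJ26 had 1 and 10. The fifth, TRAV11 with TRAJ18, is described with the invariant pairs. All but TRAV11 are central or distal segments. In liver TRAV9D-3 with TRAJ9 had 2 clones in EomesTG (0.195%) and 3 in WT (0.148%), and TRAV3-1 with TRAJ22 1 in EomesTG (0.0973%) and 1 in WT (0.0493%), so their shares were not lower there; TRAV16N with TRAJ26 had 0 and 8, and TRAV7D-2 with TRAJ26 0 and 4.

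In liver, 21 pairs reached 10 clones over both genotypes; 2 (9.52%) were higher in EomesTG and 0 (0%) lower, with fewer clones in EomesTG liver to show a lower pair. TRAV6-6 with TRAJ49 had 9 clones in EomesTG liver and 5 in WT liver, a ratio of 3.55 (1.07 to 13.5), and TRAV12-2 with TRAJ31 had 7 and 3, a ratio of 4.603 (1.05 to 27.6). In spleen the ratio of neither pair was called, with 7 clones of TRAV6-6 with TRAJ49 in EomesTG and 5 in WT, and 9 and 8 of TRAV12-2 with TRAJ31.

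The organs of a genotype differed in some zones, with the liver of EomesTG further to the 5′ end than its spleen. In EomesTG, proximal TRAV with 5′ TRAJ held 41.5% of liver clones and 36.2% of spleen clones, a ratio of 1.15 (1.03 to 1.28); among clones of 1 cell the ratio was 1.11 (0.983 to 1.24). The 3′ TRAJ zone held 8.85% of EomesTG liver clones and 11.5% of EomesTG spleen clones, a ratio of 0.771 (0.609 to 0.966). Among clones of 1 cell this ratio was 0.796 (0.621 to 1.01). In non-productive contigs this ratio was 0.437 (0.281 to 0.657), and that of distal TRAV was 0.639 (0.453 to 0.886). There each clone and pair was counted once, and each barcode without both chains on its own, so large clones may still repeat. In WT the shares were 24.6% in liver and 22.0% in spleen, a ratio of 1.12 (0.997 to 1.25). The WT liver also held more distal TRAV with 5′ TRAJ, 4.39% against 3.18% in WT spleen, a ratio of 1.38 (1.04 to 1.83). Of 62 TRAV segments with at least 10 clones in both WT organs, 31 had a more 5′ mean TRAJ in liver, and of 37 in EomesTG, 25 did, with a median difference of -0.80 places.

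Of 88 pairs compared between the EomesTG organs, 4 (4.55%) were higher in liver and 0 (0%) lower. They were TRAV6-6 with TRAJ49 (9 clones in liver and 7 in spleen), TRAV3-3 with TRAJ45 (6 and 4), TRAV5-4 with TRAJ53 (6 and 5) and TRAV13-2 with TRAJ39 (7 and 7), with ratios of shares between 3.99 and 5.98. All 4 use proximal TRAV segments, as did most of the 88 pairs compared, 52 of them with 5′ TRAJ and 25 with central TRAJ. With 1028 clones in EomesTG liver against 4100 in EomesTG spleen a lower call was hardly possible: TRAV6-7-DV9 with TRAJ47, at 0 clones in liver and 10 in spleen, still had an upper bound of 1.78. Of 105 pairs compared between the WT organs, 2 (1.9%) were higher in liver and 0 (0%) lower: TRAV7-3 with TRAJ30, with 9 clones in liver and 4 in spleen, and TRAV1 with TRAJ33, with 7 and 3.

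Over all 4 libraries the pair with most clones was TRAV6-7-DV9 with TRAJ49, with 22 clones in EomesTG spleen and 10 in WT spleen, and 7 in EomesTG liver and 5 in WT liver. TRAV6-6 with TRAJ30 followed, with 25 and 10 clones in EomesTG and WT spleen and 2 and 6 in EomesTG and WT liver. Proximal segments made up most of the 10 commonest pairs; TRAV14D-2 with TRAJ22, from the distal zone, had 13 clones in EomesTG spleen and 18 in WT spleen, and 1 in EomesTG liver and 10 in WT liver. TRAV16N with TRAJ22, from the central zone, had 7 and 19 in EomesTG and WT spleen and 2 and 11 in EomesTG and WT liver. The other commonest pairs were TRAV13-1 with TRAJ22 (42 clones in all), TRAV19 with TRAJ56 (41), TRAV5-4 with TRAJ49 (41), TRAV16 with TRAJ49 (39), TRAV11 with TRAJ18 (38) and TRAV13-1 with TRAJ49 (37).

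All of these 10 commonest pairs exceeded the number given by the product of the shares of their segments over all libraries. Choosing pairs by their number of clones favours such an excess. The product also pools the libraries and takes no account of the nested order. TRAV19 with TRAJ56 was seen 8.07 times as often as that product, TRAV14D-2 with TRAJ22 4.29 times and TRAV6-7-DV9 with TRAJ49 2.78 times, whereas TRAV11 with TRAJ18 stood at 45.4 times. Among the 20 pairs whose expected number was at least 20, 10 lay above 1, the median was 1.01 and the range was 0.185 to 1.83. The lowest was TRAV16 with TRAJ22, with 4 clones seen and 21.6 expected. TRAV6-6 with TRAJ22 (0.395), TRAV13-1 with TRAJ30 (0.535), TRAV9D-3 with TRAJ22 (0.588) and TRAV12-2 with TRAJ22 (0.635) were next. The highest were TRAV6-6 with TRAJ30 (1.83), TRAV12-2 with TRAJ34 (1.79), TRAV16N with TRAJ22 (1.77), TRAV13-1 with TRAJ49 (1.49) and TRAV13-1 with TRAJ22 (1.45). The same TRAJ22 thus stood on both sides, below the product with TRAV16, TRAV6-6, TRAV9D-3 and TRAV12-2 and above it with TRAV16N and TRAV13-1. TRAV16 and TRAV16N are named copies in the proximal and the central zone, so a swap of copies would change their contrast.

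The pair of invariant natural killer T cells, TRAV11 with TRAJ18, runs across the nested order, since it joins a proximal TRAV (chr14:53519303-53519859) to a 3′ TRAJ (chr14:54200777-54200842). It was carried by 2 clones in EomesTG spleen and 18 in WT spleen, a ratio of 0.107 (0.0120 to 0.445). In liver it was carried by 6 clones in EomesTG and 12 in WT, a ratio of 0.986 (0.304 to 2.84). The liver shares of clones were 0.584% and 0.592%, so the lower share of clones was seen in spleen and not in liver. Counted by cells with both chains, the pair held 6 of 3259 in EomesTG liver and 12 of 2407 in WT liver, a lower share in EomesTG. With both organs summed, the ratio of shares of clones was 0.310 (0.123 to 0.692). The CDR3 had 15 amino acids in 2 of 2 EomesTG and 17 of 18 WT spleen clones and in 6 of 6 EomesTG and 12 of 12 WT liver clones. TRBV13, TRBV29 or TRBV1, the beta segments typical of this lineage, were used by 2 and 17 clones in EomesTG and WT spleen and by 6 and 9 in EomesTG and WT liver. Their share among clones of other pairs is not given here, so these counts by themselves do not mark the lineage. Each clone of TRAV11 with TRAJ18 was 1 cell.

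In these cells Zbtb16 was high and Cd8b1 low relative to the other cells of their library, while Cd8a varied. Zbtb16, which encodes the transcription factor PLZF of innate-like T cells, had 113 CPM in TRAV11 with TRAJ18 cells of EomesTG spleen and 136 in WT spleen. In liver it had 44.8 in such cells of EomesTG and 129 in WT, against 0.0461 to 2.95 in all other cells with TRA and TRB. Both EomesTG values rest on very few Zbtb16 UMIs. The interval of the ratio to other cells was 31.2 to 192133 in EomesTG spleen, and in EomesTG liver, 0.749 to 190, it includes 1. Cd8b1 was at 0 in these cells of EomesTG spleen and 257 in WT spleen, and at 0 in EomesTG liver and 111 in WT liver, against 824 to 1278 CPM in all other cells. Cd8a had 0 CPM in these cells of EomesTG spleen and 60.5 in WT spleen, and 627 in EomesTG liver and 258 in WT liver, and in EomesTG liver its ratio to the other cells was 0.659 (0.360 to 1.11). The numbers rest on few cells, 2 in EomesTG spleen and 6 in EomesTG liver. TRAJ18 with any other TRAV was also less frequent in EomesTG, with 29 clones in EomesTG spleen and 70 in WT spleen, and 4 in EomesTG liver and 34 in WT liver.

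The pair of mucosal-associated invariant T cells, TRAV1 with TRAJ33, uses the farthest TRAV (chr14:52427928-52428876) with a central TRAJ (chr14:54185358-54185414). It was found in 0 clones of EomesTG spleen and 3 of WT spleen, and in 0 of EomesTG liver and 7 of WT liver. By a floor of 3 clones, the counts of 0 allow a share of up to 0.0732% in EomesTG spleen and 0.292% in EomesTG liver; the exact 95% upper limits are 0.0899% and 0.358%. Over both organs, 0 clones in EomesTG against 10 in WT gave a ratio of 0 with an exact upper bound of 0.519. Set against a floor of 3 clones over the group, this is 2.87-fold lower. In each organ alone the interval of the ratio included 1, at 0 to 2.32 in spleen and 0 to 1.37 in liver. The CDR3 had the typical 12 amino acids in 3 of 3 WT spleen clones and 6 of 7 WT liver clones. TRAV1 was also rare with any other TRAJ in EomesTG, with 1 clone in EomesTG spleen and 15 in WT spleen, and 0 in EomesTG liver and 10 in WT liver. TRAJ33 with any other TRAV was not lower in EomesTG, with 162 clones in EomesTG spleen and 126 in WT spleen, and 37 in EomesTG liver (3.60% of clones) and 37 in WT liver (1.82%).

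Shares by clone size ran in opposite directions in the 2 livers, within overlapping intervals, and this contrast was not tested. Clones of at least 2 cells numbered 54 in EomesTG spleen and 53 in WT spleen, and 141 in EomesTG liver and 85 in WT liver, and they held 72.8% of cells in EomesTG liver but 3.34% to 19.3% in the others. In EomesTG liver, proximal TRAV with 5′ TRAJ was carried by 40.2% of the 887 clones of 1 cell, 45.6% of the 90 clones of 2 to 4 cells and 56.9% of the 51 clones of at least 5 cells (42.2% to 70.7%). The ratio of clones of at least 5 cells to those of 1 cell, a contrast chosen after seeing the data, was 1.41 (0.933 to 2.06), and that of clones of at least 2 cells was 1.23 (0.941 to 1.60); both intervals include 1. In WT liver the shares were 24.8% of 1943, 21.5% of 65 and 15% of 20 clones in the same order of size. The spleens held 5 clones in EomesTG and 3 in WT of at least 5 cells, too few for a share.

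**Figure D4:**
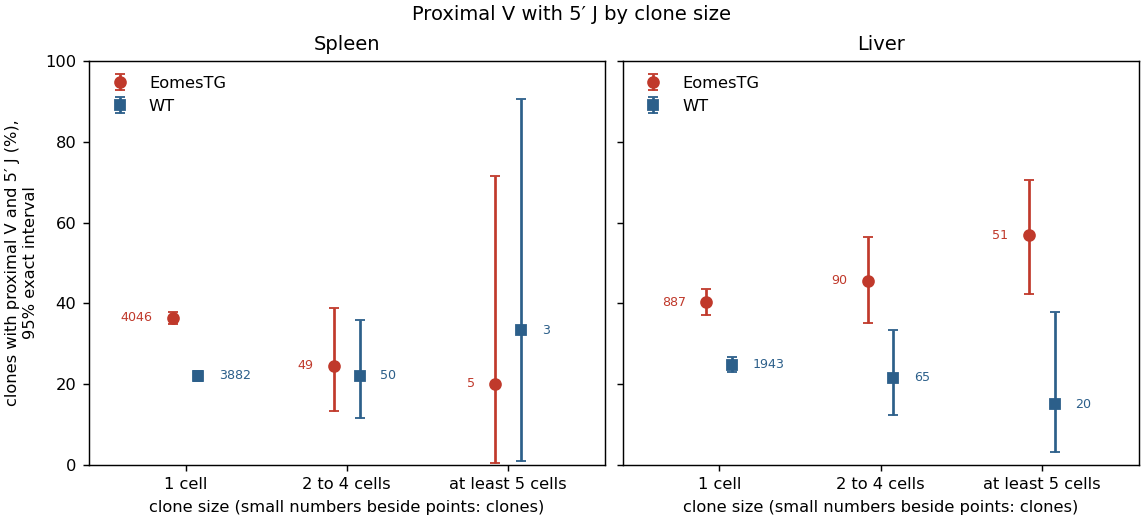
Share of clones with proximal TRAV and 5′ TRAJ (%, points; bars, exact 95% intervals for counting error) among clones of 1 cell, 2 to 4 cells and at least 5 cells, in spleen (left) and liver (right); small numbers are clones. Points for EomesTG liver run upward with clone size, at 40.2%, 45.6% and 56.9%, and those for WT liver run downward, at 24.8%, 21.5% and 15%, with intervals that overlap between sizes of a library.

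The difference between genotypes was also present among unexpanded clones. Among clones of 1 cell, proximal TRAV with 5′ TRAJ had a ratio of EomesTG to WT of 1.65 (1.52 to 1.80) in spleen and 1.63 (1.41 to 1.87) in liver.

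Counted by cells, a few clones set the EomesTG liver. Its correlation of TRAV with TRAJ order was 0.724 over cells and 0.405 over clones, while over cells it was 0.487 in WT liver, 0.404 in EomesTG spleen and 0.469 in WT spleen. The largest EomesTG liver clones joined TRAV14D-1 to TRAJ23 (492 cells, distal with central), TRAV19 to TRAJ58 (448 cells, proximal with the 5′-most TRAJ), TRAV13-1 to TRAJ31 (233 cells), TRAV9N-4 to TRAJ22 (104 cells) and TRAV9-4 to TRAJ35 (75 cells). The TRAV13-1 and TRAV9-4 chains shared 1 TRB chain and 147 of the 308 cells held both, so they form 1 T cell clone with 2 TRA chains that the counting rule splits. The largest WT liver clones joined TRAV10 to TRAJ56 (117 cells) and TRAV7-3 to TRAJ30 (46 cells), followed by TRAV6-6 with TRAJ43, TRAV12-3 with TRAJ34 and TRAV7N-6 with TRAJ26 at 12 to 14 cells.

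In spleen the largest clones were small. EomesTG spleen held TRAV7-6 with TRAJ45 (10 cells), TRAV13-1 with TRAJ31 (8), TRAV12D-2 with TRAJ26 (7), TRAV9-4 with TRAJ35 (6) and TRAV13-2 with TRAJ13 (5). WT spleen held TRAV10 with TRAJ56 (42 cells), TRAV12-3 with TRAJ34 (6), TRAV14D-1 with TRAJ6 (5), and TRAV6-6 with TRAJ43 and TRAV13D-2 with TRAJ4 (4 each). The WT clone with TRAV10 and TRAJ56 was also the largest of WT liver. Clones found in both organs numbered 28 in EomesTG and 63 in WT, and 0 were found in both genotypes.

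TRA contigs that were not marked productive, called non-productive here, showed the same direction. Their reading frame and completeness were not checked, so whether they are free of selection of the receptor protein was not tested. Proximal TRAV with 5′ TRAJ made up 30.9% of such contigs in EomesTG spleen and 20.1% in WT spleen, a ratio of 1.53 (1.31 to 1.80). With each clone and pair counted once in liver, a count added after seeing that large clones repeat their contig, the shares were 42.7% in EomesTG and 19.3% in WT, a ratio of 2.22 (1.79 to 2.75). Barcodes without both productive chains belong to no clone, and each was counted on its own. In EomesTG liver 3259 of 3983 barcodes had both chains, so large clones may still repeat in this count. Distal TRAV with 3′ TRAJ made up 2.97% in EomesTG spleen and 13.3% in WT spleen, a ratio of 0.224. Their correlation of TRAV with TRAJ order was 0.334 in EomesTG spleen and 0.500 in WT spleen, whereas in liver, each clone and pair once, it was 0.496 in EomesTG and 0.418 in WT. The order of the genotypes in this measure was thus reversed between the organs.

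CDR3 length differed little between libraries. The mean was 13.7 ± 1.4 amino acids (SD over clones) and the median 14 in each of the 4 libraries, and 71.2% to 73.1% of clones had 13 to 15 amino acids. The largest difference between genotypes was at the long end: CDR3s of at least 16 amino acids made up 10.1% (9.17% to 11.0%) of EomesTG spleen clones and 7.95% (7.13% to 8.84%) of WT spleen clones. In liver they made up 9.24% in EomesTG and 8.93% in WT. CDR3s of at most 12 amino acids made up 18.7% in EomesTG spleen and 19.6% in WT spleen, and 17.7% in EomesTG liver and 18.3% in WT liver.

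Length followed the TRAJ segment. The mean length ranged from 12.4 with TRAJ31 to 15.9 with TRAJ2, and over the 43 TRAJ segments it correlated with the germline bases that the segment brings to the CDR3 (26 to 35) with Pearson r = 0.924 and Spearman rho = 0.923. Over 78 TRAV segments r was 0.776 and rho 0.637. Segments share libraries and each mean includes the segment's own bases, so both are descriptions. Clones with a 5′ TRAJ averaged 13.94 amino acids in EomesTG spleen and 13.91 in WT spleen, and 13.97 in EomesTG liver and 13.91 in WT liver, whereas clones with a central TRAJ averaged 13.5 or 13.6 in each library. With TRAJ shares set equal, the mean lengths were 13.69 in EomesTG spleen and 13.67 in WT spleen, and 13.63 in EomesTG liver and 13.69 in WT liver.

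**Figure D5:**
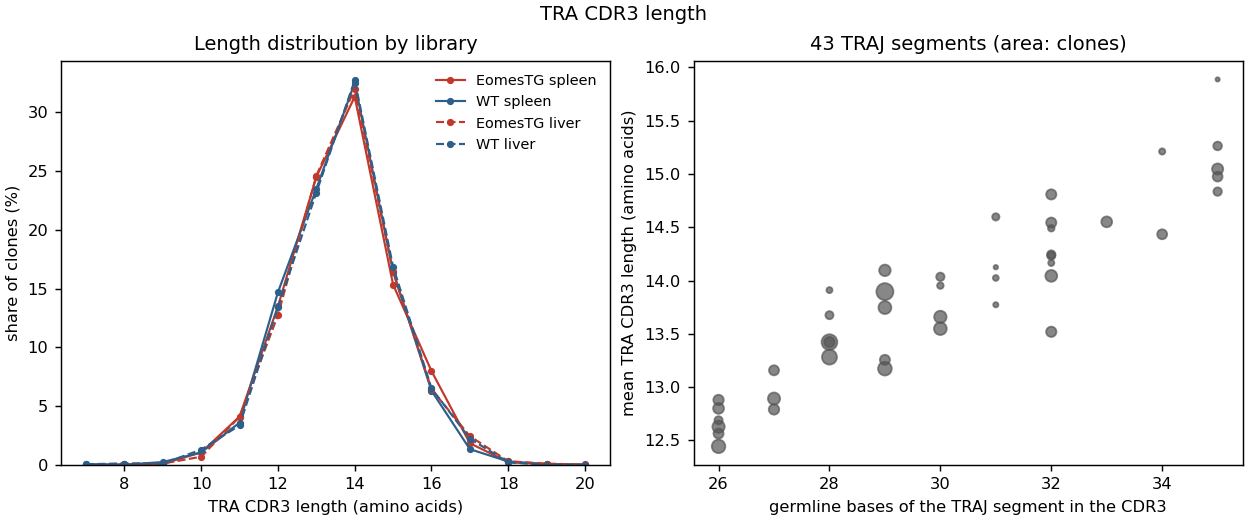
Left, share of clones (%) by TRA CDR3 length in amino acids in the 4 libraries, drawn as lines; right, mean CDR3 length by the number of germline bases that each of 43 TRAJ segments brings to the CDR3, with point area proportional to clones. The 4 lines nearly coincide with a peak at 14 amino acids, and mean length runs upward with germline bases.

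Mean lengths of expanded and single-cell clones lay farthest apart in WT spleen. The means of clones of at least 2 cells and of 1 cell were 13.7 and 13.7 in EomesTG liver, 13.7 and 13.7 in WT liver, and 13.9 and 13.7 in EomesTG spleen. In WT spleen they were 13.1 over 53 clones and 13.7 over 3882 clones. The SD over clones was 1.10 for the expanded and 1.37 for the single-cell clones of WT spleen.

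Most junctions held few bases of neither segment. Clones had a mean of 2.78 such bases in EomesTG spleen and 2.84 in WT spleen, and 2.76 in EomesTG liver and 2.69 in WT liver. Junctions with none made up 15.4% in EomesTG spleen and 15.2% in WT spleen, and 16.4% in EomesTG liver and 17.3% in WT liver. In EomesTG liver they made up 21.3% of the 141 expanded clones (14.8% to 28.96%) and 15.7% of single-cell clones (13.3% to 18.2%). The counts are a lower bound on added bases, since an added base can match a germline base by chance.

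Short CDR3s had fewer of these bases. CDR3s of 10 amino acids held a mean of 1.23 bases of neither segment and 40.2% had none, whereas those of 17 amino acids held 5.64 and 0.508% had none. Bases of neither segment count toward the length, so both measures share a part.

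Recurrent TRA chains were close to germline. Of 10369 distinct TRA chains, 215 (2.07%) occurred in both genotypes, 424 occurred with at least 2 TRB chains, and the most widely shared, TRAV14D-2 with TRAJ22, occurred with 18: 8 in EomesTG spleen and 4 in WT spleen, and 1 in EomesTG liver and 5 in WT liver. Chains in both genotypes held a mean of 1.06 bases of neither segment and 47.0% had none, against 2.92 bases and 12.97% in chains of 1 genotype. Among the 42 chains with at least 4 TRB chains, 73.8% had none. Proximal TRAV with 5′ TRAJ made up 36.7% (30.3% to 43.6%) of chains in both genotypes and 29.5% (28.6% to 30.4%) of chains in 1 genotype, with overlapping intervals, and proximal TRAV with central TRAJ 25.1% (19.5% to 31.5%) and 18.9% (18.2% to 19.7%).

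The recombinase genes were not detected in these peripheral cells. Rag1 and Rag2, which encode its subunits, had 0 UMIs in every library. Of the recombination and end-joining genes, 13 had at least 50 UMIs in the spleens, and 1 was higher in EomesTG and 1 lower, by the same 1.5-fold rule that marked 2.61% of 10780 genes higher and 5.08% lower. The median log2 difference of the 13 was 0.03, and -0.01 over all genes tested. In liver 12 genes were tested, with 1 higher and 0 lower, against 13.7% and 7.31% of 10915 genes, and the median log2 difference was 0.08, against 0.13 over all genes tested.

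The higher gene in spleen was Dntt, with 60 UMIs in EomesTG and 23 in WT, a log2 difference of 1.41 (0.69 to 2.17) in CPM; in liver it had 11 UMIs in EomesTG and 10 in WT. The lower gene was Hmgb2, a chromatin protein that also bends DNA for the recombinase, with 195 CPM in EomesTG spleen and 324 in WT spleen, a log2 difference of -0.73. In liver the higher gene was Lig4, the ligase of end joining, with 3.34 CPM in EomesTG and 1.999 in WT, a log2 difference of 0.74 (0.15 to 1.35). Levels in sorted peripheral cells do not show those of thymocytes, in which the joins were made.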

How the data were processed

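T cell receptor and 5′ expression libraries of the same cells were made from sorted CD8+ T cells, per the labels. The authors deposited contig tables and gene matrices whose values are counts of UMIs and reads, made with Cell Ranger on mm10, per the submitters' processing notes; the matrix headers name software 3.1.0. Here the productive TRA and TRB contigs with most UMIs were taken per barcode (91 ties in EomesTG spleen, 90 in WT spleen, 64 in EomesTG liver and 47 in WT liver, settled by a fixed order), and barcodes without both chains were left out. TRA contigs held 14597 to 21416 UMIs per library. Segment positions and germline ends came from GENCODE M21; germline ends were read from its transcripts and bases that fit both segments were given to TRAV. Shares have exact binomial intervals and ratios exact conditional ones at 95%. Pairs needed 10 clones over both sides and a 1.5-fold difference with the interval on that side of 1; genes needed 50 UMIs. Named pairs were the 10 commonest, the 5 highest and 5 lowest in each comparison, those of the 5 largest clones per library, the 5 largest and 5 smallest against the product of segment shares, and the invariant pairs. The members, lists and rules were chosen with earlier results of these data known. Scripts were tested on simulated data. They ran under Python 3.11.15 with scipy 1.17.1, pandas 2.3.3, numpy 2.4.6 and matplotlib 3.10.9.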

Additional observations from a re-analysis of the deposited data

Results flagged for a closer look

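A signal outside the productive TRA contigs was above its level in the control library: contigs that join a TRDV segment, of the delta chain, to a TRAJ segment. They were found in 106 of 5453 barcodes in EomesTG spleen (1.94%, 1.59% to 2.35%) and in 44 of 5183 in WT spleen (0.849%), a ratio of 2.29 (1.60 to 3.33). In liver they were found in 53 of 3983 barcodes in EomesTG (1.33%) and 30 of 2940 in WT (1.02%), a ratio of 1.30 (0.818 to 2.11). These barcodes came from 104 clones or single barcodes in EomesTG spleen and 44 in WT spleen, and from 38 in EomesTG liver and 30 in WT liver. Cells of a clone thus repeat in the EomesTG liver share, its interval and the contig counts below, and a ratio by clones is not given here. TRDV1 was the commonest segment, with 74 contigs in EomesTG spleen and 27 in WT spleen, and 40 in EomesTG liver and 15 in WT liver. The TRAJ segment was in the 5′ zone in 95 of 107 contigs in EomesTG spleen and 37 of 44 in WT spleen, and in 48 of 53 in EomesTG liver and 26 of 30 in WT liver.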

How the results depend on the processing

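No paired analysis was possible because each group is 1 library without replicates. Among recomputed main values other than single pairs, 262 stayed within the tolerance, 90 moved and 0 called values changed sign. The uncalled length differences of expanded minus single-cell clones changed sign under at least 1 setting in every library but WT spleen (0.235 amino acids as first computed in EomesTG spleen), and the expanded to single-cell ratios of both livers crossed 1 under 1 setting each. Among values of single pairs 120 stayed and 1 moved, TRAV7-3 with TRAJ30 between WT liver and spleen, to 22.7 with each cell counted. Over 10 settings each, the ratio of EomesTG to WT for proximal TRAV with 5′ TRAJ ranged from 1.58 to 1.97 in spleen and 1.45 to 1.83 in liver, and that for distal TRAV with 3′ TRAJ from 0.184 to 0.401 in spleen and 0.118 to 0.345 in liver, with every interval on its side of 1. The cause of each change below was not tested, except that smaller sets hold fewer clones and that other zones hold other segments. The 12 TRAV segments without named copies carried 284, 278, 77 and 168 clones; throughout, 4 values are for EomesTG spleen, WT spleen, EomesTG liver and WT liver.

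With those 12 segments alone, the correlation was 0.475, 0.646 and 0.704 in EomesTG spleen, WT spleen and WT liver; proximal TRAV with 5′ TRAJ held 72.2%, 36.7%, 72.7% and 50%; distal TRAV with 3′ TRAJ held 17.3% in WT spleen and 17.9% in WT liver. The ratios of EomesTG to WT were 1.97 and 1.45 for proximal TRAV with 5′ TRAJ in spleen and liver and 0.184 for distal TRAV with 3′ TRAJ in spleen. Mean length was 14.2, 13.9 and 14.04 in EomesTG spleen, WT spleen and WT liver, and expanded minus single-cell clones -0.165, -0.449 and 0.667 in EomesTG spleen, WT spleen and EomesTG liver. The ratio of expanded to single-cell clones for proximal TRAV with 5′ TRAJ in EomesTG liver was 0.720. Called pairs in spleen were 1 higher and 1 lower, and 0 were higher in liver, between EomesTG organs or between WT organs.

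With 2 zones, proximal TRAV with 5′ TRAJ held 55.5%, 35.0%, 59.7% and 37.1% and distal TRAV with 3′ TRAJ 11.8%, 29.4%, 10.0% and 29.04%, and the ratio of EomesTG to WT for distal TRAV with 3′ TRAJ in spleen was 0.401. With zones of equal physical length the shares were 32.1%, 19.9% and 35.4% for proximal TRAV with 5′ TRAJ in EomesTG spleen, WT spleen and EomesTG liver, and 1.61%, 4.65%, 1.26% and 5.18% for distal TRAV with 3′ TRAJ. With physical distance the correlation was 0.331 in EomesTG spleen and 0.350 in EomesTG liver. The median length was 14 in each library. With each cell counted, the correlation was 0.724 and distal TRAV with 3′ TRAJ 1.23% in EomesTG liver, its ratio to WT 0.118, proximal TRAV with 5′ TRAJ 27.2% in WT liver and its ratio of expanded to single-cell 1.51; the length difference was -0.188 in WT spleen and 0.133 in WT liver.

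With each cell counted, called pairs were 28 higher and 14 lower in EomesTG liver than WT liver, 31 higher and 20 lower in EomesTG liver than spleen, and 8 higher in WT liver than spleen. Without barcodes of more than 1 chain they were 5 higher and 8 lower in spleen, 1 higher in liver and 1 higher between WT organs. With contigs of at least 3 UMIs they were 3 higher and 7 lower in spleen and 0 higher between WT organs, EomesTG spleen held 34.4% proximal TRAV with 5′ TRAJ, and its length difference was -0.164. With at least 20 clones they were 1 higher and 6 lower in spleen, and 0 higher in liver, between EomesTG organs or between WT organs. With at least 5 clones they were 26 higher and 24 lower in spleen, 6 and 1 in liver, 11 higher between EomesTG organs, and 5 higher and 1 lower between WT organs. With TRAV copies under 1 name they were 1 higher and 1 lower in liver, and 4 and 1 between WT organs. With barcodes of the expression libraries only, 4 were higher between WT organs, and with 1 clone per TRB chain, chosen after seeing the data, 1.

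Without clones of more than 1 library the length difference was 0.449 in EomesTG spleen and 0.193 in WT liver, and with clone size over both organs -0.346 in WT spleen. Non-productive contigs of EomesTG liver, each clone and pair once and barcodes without both chains singly, correlated at 0.496. With no minimum of UMIs, 2 recombination genes were called in liver. Few clones per pair, single libraries and TRAV copies limit the pair counts, and the 1028 clones of EomesTG liver limit the liver comparisons.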
